A study of Rattus norvegicus with 4 samples.

Results

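The comparison described here is that of livers from prenatally undernourished rats with livers from control rats when both had been fed a high-fat diet, and it rests on 2 of the 4 samples of the study. The samples were chosen by their titles: 1 sample of liver from FR30 offspring on the high-fat diet, FR30 being the study's name for prenatal undernutrition, and 1 sample of liver from control offspring on that diet. The other samples came from control and from FR30 offspring on a standard diet. All animals were male Wistar rats aged 4 months, and they differed in prenatal nutrition and later diet. No transgene, deletion or drug is named in the labels. The sources used here do not give the composition and length of the high-fat diet, the scheme of the maternal food restriction or the number of animals behind each sample. Each group therefore has 1 sample, no difference below has a replicate check, and no test was made.

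Undernutrition of the mother during pregnancy is used in rats as a model of developmental programming, in which the nutrition of the fetus has lasting effects on metabolism in the adult. The liver is a main site of these studies because it makes and clears cholesterol, desaturates and burns fatty acids, releases glucose, and inactivates steroids, bilirubin and foreign compounds. Cells make cholesterol from acetyl-CoA in a chain of enzymes whose genes are transcribed together by the sterol-sensing factor SREBP-2, while its relative SREBP-1 drives genes of fatty acid synthesis and desaturation.

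RNA was read on Illumina expression BeadArrays, and each value below is the signal intensity that the authors deposited after their normalization, in arbitrary units. It carries a deposited standard deviation (STDEV), written here after ±, and the sources used here do not say over what, or how many, measurements it was taken, so it cannot stand for the spread between animals. The number of samples, 1 per group, limits the precision. Signals keep a background of about 154 units, so folds of dim genes are understated. A gene counted as detected at a detection p-value under 0.05 or a signal of at least 300. Between 9062 and 9288 of 21596 genes were detected per sample, with median signals of 170.1 to 170.6. The 2 high-fat samples had a median STDEV of 2.89% and 3.57% of the signal, and neither had a gene with an STDEV over 20%. The FR30 standard-diet sample had 115 such genes.

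On the high-fat diet 8817 genes were detected in both samples. At least 1.5-fold higher in FR30 liver were 57 genes, 0.646% of those compared, and at least 1.5-fold lower were 43 genes, 0.488%. After a normal-exponential background correction these counts were 153 (1.74%) and 139 (1.58%). The median log2 difference was -0.005, and the 5th and 95th percentiles over genes were -0.24 and 0.24. For all 100 genes past 1.5-fold (1.13%) the signals plus and minus 2 STDEV did not overlap, as they did not for 1700 of the 8817 genes. At least 2-fold higher were 14 genes and at least 2-fold lower were 5. Just inside the threshold lay *Adh6*, at 1306 in control and 1964 in FR30 liver, and just outside it *Map3k12*, at 349.8 and 524.5. On the lower side *Slfn3*, at 1209 and 804, was just inside, and *Pparg*, at 471 and 314, just outside.

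The standard-diet samples give the place of both high-fat signals among all 4. These genes were picked for their high-fat difference, so the counts of highest and lowest samples are in part fixed by that choice. Of the 57 genes higher in FR30 liver, the FR30 high-fat sample had the highest of the 4 signals for 43, and the control high-fat sample had the lowest for 31. The FR30 high-fat sample lay at least 1.5-fold from each of the other 3 samples for 18 of them, and the control high-fat sample did so for 8. Of the 43 lower genes, the control high-fat sample was highest for 34 and the FR30 high-fat sample lowest for 27. Here the control high-fat sample lay at least 1.5-fold from each of the others for 8 genes and the FR30 high-fat sample for 4. Neither high-fat sample lay that far from each of the others for 32 of the higher and 31 of the lower genes, and both did for 1, LOC499823.

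**Figure D1:**
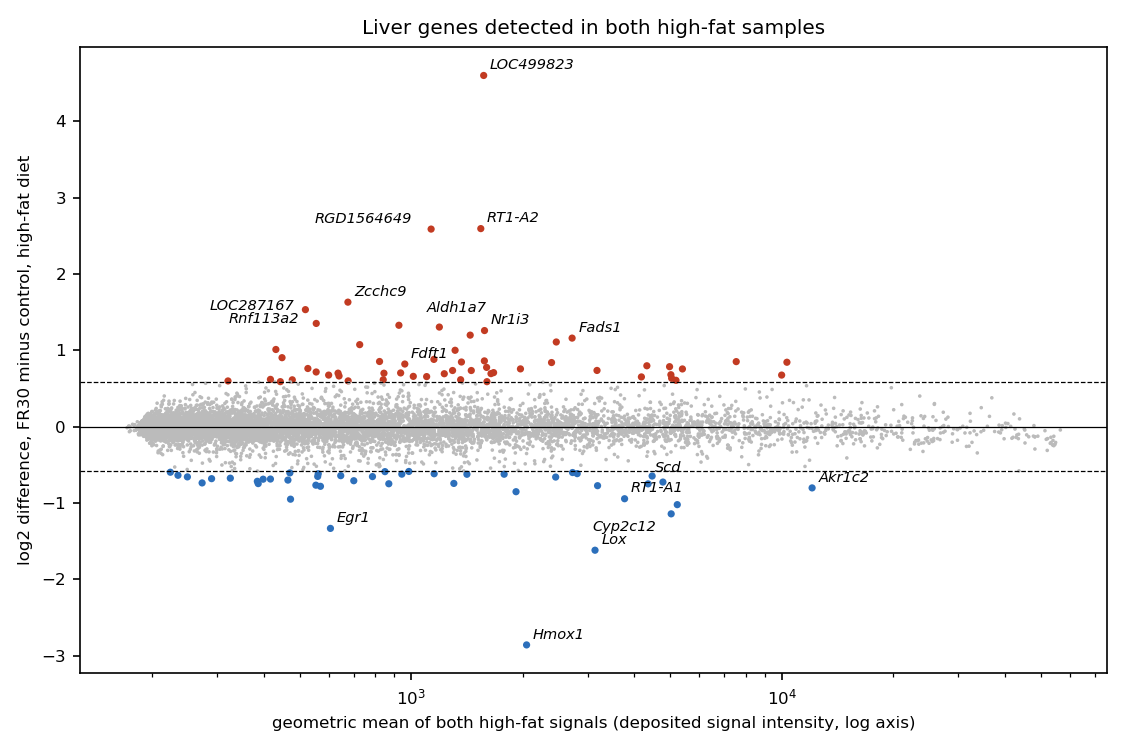
Log2 difference between FR30 and control liver on the high-fat diet (vertical axis) against the geometric mean of both deposited signals (horizontal log axis, arbitrary units) for the 8817 genes detected in both samples. Dashed lines mark 1.5-fold; the 57 red points above and the 43 blue points below are past it, with LOC499823 highest and Hmox1 lowest.

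Over 39 gene lists together, 24 of 606 compared genes were higher (3.96%) and 15 lower (2.48%), against 0.646% and 0.488% of all genes. The lists were chosen with earlier results of these data known, so this contrast may in part be fixed by that choice. The same shares of all genes stand beside each list count below. Calls also varied with brightness. Of 2923 genes under 300 units 0 were higher and 5 lower. Of 2019 genes at 1000 to 5000 units 29 were higher and 16 lower. Genes of cholesterol synthesis were the list with the highest median. All 16 members analysed were detected in both high-fat samples, 3 were at least 1.5-fold higher in FR30 liver and 0 were lower. Their median log2 difference was 0.25, with 13 members above 0 and 3 below, against 48.2% of all genes above 0. *Fdft1*, squalene synthase, had a signal of 724 ± 20.7 in control and 1277 ± 32.2 in FR30 liver, 1.76-fold higher, and 1203 and 1208 in the control and FR30 samples on standard diet. *Dhcr7*, which makes the last reduction to cholesterol, read 1003 ± 43.5 and 1669 ± 15.9 on high-fat diet (1.66-fold), and 1857 and 2192 on standard diet. For these enzymes the control high-fat sample was the low one, more than 1.5-fold below each of the others.

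*Msmo1* (*Sc4mol* in the file), the sterol C4-methyl oxidase, read 679.6 ± 13.2 and 1039.7 ± 22.999 (1.53-fold), with 802 and 946 on standard diet, so FR30 high-fat liver was the highest of the 4. After background correction 5 members were at least 1.5-fold higher, the added ones being *Sqle*, the squalene epoxidase (224 ± 9.71 and 304 ± 22.9 as deposited, 1.94-fold after correction), and *Idi1*, an isomerase of the mevalonate branch (295 ± 13.961 and 390.1 ± 7.83, 1.602-fold after correction).

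Of the other members, most lay above 0 and 3 below. *Acat2*, *Fdps*, *Tm7sf2*, *Nsdhl*, *Pmvk*, *Cyp51*, *Mvd* and *Hmgcs1* had log2 differences between 0.08 (*Mvd*) and 0.39 (*Fdps*). *Sc5d*, *Hsd17b7* and *Ebp*, sterol-modifying enzymes, had log2 differences of -0.22, -0.06 and -0.06. A transcript that the file calls similar to INSIG-1 (LOC683385), INSIG-1 being a sterol-regulated brake on this pathway, was 1.80-fold higher, at 1019.7 ± 34.2 and 1833 ± 24.4. It is named because of its role after its value was seen.

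**Figure D2:**
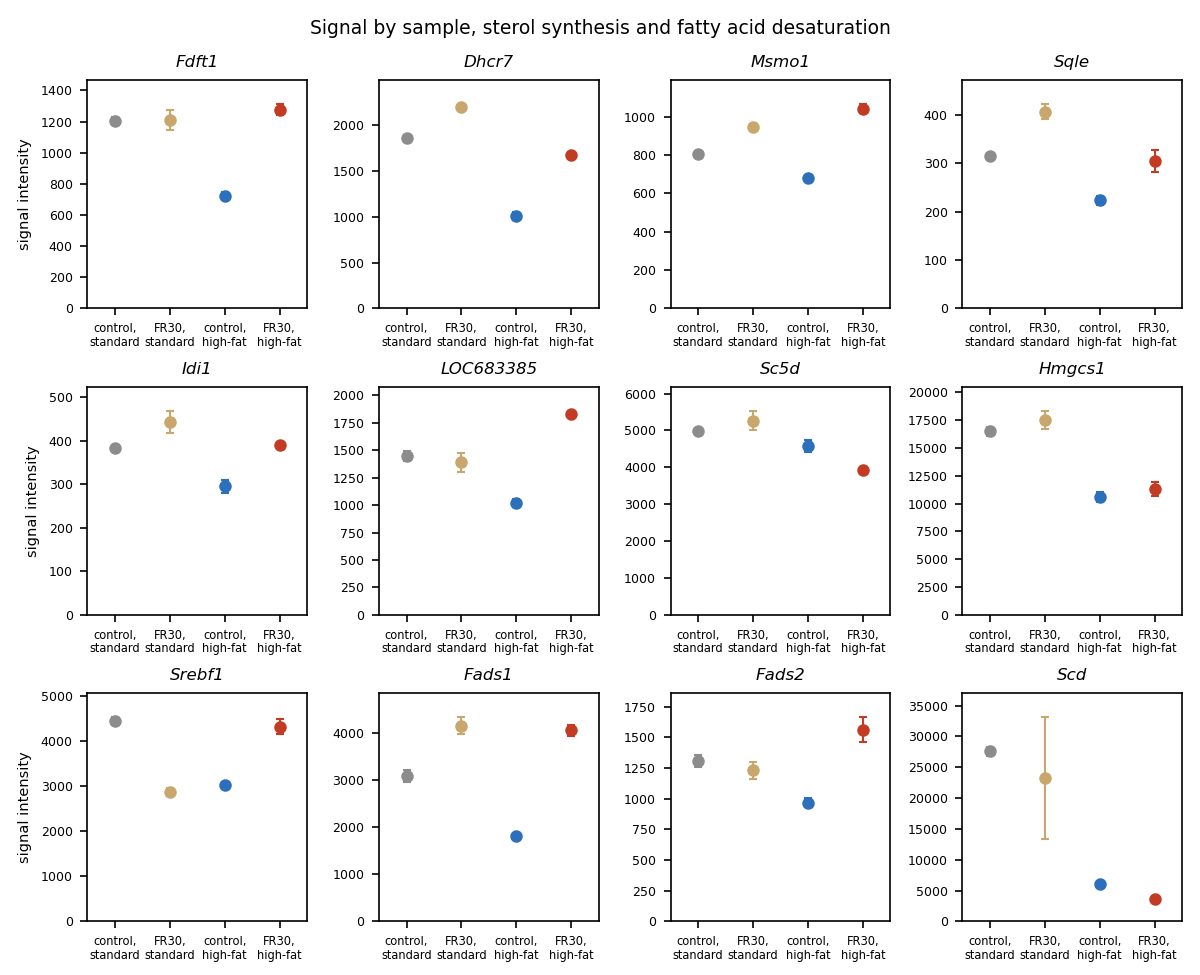
Deposited signal intensity (vertical axes from 0, arbitrary units) in each of the 4 samples for genes of sterol synthesis and fatty acid desaturation; points are single samples and bars the deposited STDEV. Fdft1, Dhcr7 and Fads1 were lowest in control liver on high-fat diet, while Sc5d and Scd were lowest in FR30 liver on that diet.

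Promoters are shown for 3 genes of this list, *Msmo1* and *Dhcr7*, which passed 1.5-fold, and *Idi1*, which passed it after background correction only. They come from RefSeq with the GRCr8 assembly: 250 bases before to 50 bases after the annotated start, 5′ to 3′ on the gene's strand. Capitals mark CCAAT or its reverse complement ATTGG, the box bound by NF-Y, a partner of SREBP. *Msmo1* lies at chr16:29746863-29747162 on the plus strand, *Dhcr7* at chr1:208444184-208444483 on the plus strand and *Idi1* at chr17:66547475-66547774 on the minus strand.
Msmo1: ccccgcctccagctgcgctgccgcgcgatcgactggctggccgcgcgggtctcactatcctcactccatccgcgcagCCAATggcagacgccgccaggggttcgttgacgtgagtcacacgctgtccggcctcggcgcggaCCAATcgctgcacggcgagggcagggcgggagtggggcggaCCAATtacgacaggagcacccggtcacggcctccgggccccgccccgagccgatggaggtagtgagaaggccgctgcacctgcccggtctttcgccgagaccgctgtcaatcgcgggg
Dhcr7: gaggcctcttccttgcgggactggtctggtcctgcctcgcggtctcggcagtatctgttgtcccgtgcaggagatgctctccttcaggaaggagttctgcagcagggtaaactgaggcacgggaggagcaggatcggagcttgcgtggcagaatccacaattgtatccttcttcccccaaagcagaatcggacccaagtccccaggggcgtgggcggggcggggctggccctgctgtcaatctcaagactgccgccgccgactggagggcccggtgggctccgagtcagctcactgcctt
Idi1: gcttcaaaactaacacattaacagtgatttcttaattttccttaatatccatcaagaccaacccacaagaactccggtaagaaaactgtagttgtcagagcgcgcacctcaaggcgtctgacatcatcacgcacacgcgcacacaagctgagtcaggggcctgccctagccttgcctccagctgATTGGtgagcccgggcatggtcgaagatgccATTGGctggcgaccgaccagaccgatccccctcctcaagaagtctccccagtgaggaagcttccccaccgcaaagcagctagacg
The Msmo1 window holds 3 CCAAT matches, the Idi1 window 2 and the Dhcr7 window 0. Of the 16 list genes analysed 13 had a promoter in the RefSeq table. CCAAT on either strand was in 10 of these 13 windows and in 37.7% of all 27457 windows of the table. The GC box GGGCGG, on either strand, was in 11 of 13 and in 34.9% of all. The sterol regulatory element searched as TCACNCCAC, on either strand, was in 0 of the 13 and in 1.13% of all. No motif contains another, but neighbouring matches can share letters. These matches describe letters in a window and not binding.

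Cholesterol uptake, sensing, efflux and esterification were read from their own lists, and their difference from the synthesis list was not tested. Of 9 compared genes of uptake and sterol sensing 0 passed 1.5-fold either way on deposited signals, with a median log2 difference of -0.03. *Tmem97*, a sterol-regulated membrane protein, read 1028 ± 36.8 in control and 1426 ± 66.6 in FR30 liver (log2 difference 0.47). *Stard4*, a sterol carrier, read 206.1 and 253.2 and was the 1 gene of the list past 1.5-fold after background correction, at 1.69-fold. Efflux and esterification genes gave 0 of 9 past 1.5-fold and a median of -0.01, with *Abca1*, the exporter of cholesterol to HDL, at a log2 difference of 0.19.

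Bile acid synthesis and transport gave 1 of 22 compared genes higher and 0 lower, against 0.646% and 0.488% of all genes. The list median was 0.01. The higher gene was *Cyp7b1*, an oxysterol hydroxylase of the alternative bile acid pathway, at 807 ± 17.9 in control and 1273 ± 55.1 in FR30 liver (1.58-fold), against 610.5 and 558 on standard diet. FR30 liver on high-fat diet was thus above each of the other samples. *Cyp7a1*, the rate-limiting enzyme of the classical pathway, read 4428 ± 52.2 and 3708 ± 171, 1.19-fold lower, and both high-fat signals were far above the 1159 and 766 of the standard-diet samples.

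Among 12 compared genes of fatty acid synthesis and desaturation 2 were higher and 1 was lower, against 0.646% and 0.488% of all genes. The list median was 0.09. The higher genes were the desaturases that make long polyunsaturated fatty acids. *Fads1*, the delta-5 desaturase, read 1819.8 ± 16.4 in control and 4064 ± 112 in FR30 liver (2.23-fold), with 3095 and 4158 on standard diet, so control high-fat liver was the low sample. *Fads2*, the delta-6 desaturase, read 967 ± 37.9 and 1562 ± 100.3 (1.62-fold), with 1311 and 1233. The lower gene was *Scd* (*Scd1* in the file), which makes monounsaturated fatty acids, at 6151 ± 140.3 and 3718 ± 265 (1.65-fold). Its standard-diet signals were 27598 in control and 23230 in FR30 liver, the latter with an STDEV of 9852, so both high-fat signals were well below them. *Srebf1*, the gene of SREBP-1, read 3018 ± 56.4 and 4309.6 ± 168 (1.43-fold), under the threshold.

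Other lipid genes past 1.5-fold were single members of their lists. *Fitm2*, a lipid droplet protein, was 1.57-fold lower, the 1 such gene of 10 compared (list median -0.04). *Acsm2*, a medium-chain acyl-CoA synthetase, was 1.53-fold lower, at 695 ± 57.975 and 453 ± 17.9, and both were above the 180.3 and 176.1 of the standard-diet samples. *Pex11a*, a peroxisome division factor, was 1.53-fold higher, the 1 such gene among 27 of fatty acid oxidation (median 0.02). *Cpt1a*, the gate of mitochondrial fatty acid import, differed little, at 8166 ± 229 and 7724 ± 307. *Acaa1b* (RGD1562373 in the file, similar to the peroxisomal thiolase B) was 2.01-fold higher, at 304 ± 26.1 and 612 ± 40.4, with 539.5 and 483 on standard diet. Triglyceride synthesis gave 0 of 7 past 1.5-fold. Apolipoproteins gave 0 of 12, with a median of -0.13 as deposited and -0.03 after background correction. The 141 brightest genes, at 20000 units and above, had a median of -0.08 as deposited and 0.0 after correction.

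The enzymes that attach glutathione, glucuronic acid, sulfate or methyl groups to drugs, steroids and bilirubin are taken as 1 list. Of 26 conjugating enzymes 5 were higher and 1 was lower, against 0.646% and 0.488% of all genes. A log2 difference above 0 was read for 20 of them, against 48.2% of all genes, and their median was 0.21. *Gstm2*, a glutathione transferase, read 5616 ± 88.6 in control and 10129.8 ± 359.6 in FR30 liver (1.80-fold), with 7882 and 6698 on standard diet. *Ugt1a1*, which conjugates bilirubin, read 3797 ± 39.6 and 6542 ± 105 (1.72-fold), with 4559 and 4236. *Gsta3* (*Yc2* in the file), another glutathione transferase, read 328 ± 7.88 and 613 ± 44.9 (1.87-fold), with 213 and 185. The array has 2 rows for *Gsta3* and the brighter one is given. With the mean of its rows it was not detected in both high-fat samples. In *Gstm2*, *Ugt1a1* and this row of *Gsta3* FR30 high-fat liver had the highest signal of the 4.

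The glucuronosyltransferases *Ugt2b17* and *Ugt2a3* had another order of samples. *Ugt2b17*, which conjugates steroids, read 1789.6 ± 26.3 and 3201 ± 110.2 on high-fat diet (1.79-fold higher in FR30) but 5367 and 1583 on standard diet, where FR30 liver was the lower. *Ugt2a3* read 663 ± 8.45 and 1076 ± 6.54 (1.62-fold), with 1535 and 555 on standard diet. The lower conjugating enzyme was *Nnmt*, which methylates nicotinamide, at 3360.0 ± 173 and 2214 ± 115 (1.52-fold), with 4543 and 4122 on standard diet. FR30 high-fat liver was the lowest of the 4 samples for *Nnmt*.

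*Nr1i3*, the gene of the constitutive androstane receptor, a nuclear receptor that turns on drug-metabolising genes, was among the larger differences. It read 1020.3 ± 31.8 in control and 2439.9 ± 74.7 in FR30 liver, 2.39-fold higher, and 894 and 673 on standard diet. *Cyp2b15*, a cytochrome P450 of the family that this receptor controls, read 929 ± 12.4 and 1858 ± 5.64 (log2 difference 0.999), with 945 and 776. *Aldh1a7*, an aldehyde dehydrogenase, read 758 ± 24.6 and 1872 ± 152 (2.47-fold), with 255 and 211. All 3 genes had their highest signal in FR30 high-fat liver, at least 1.5-fold above each of the other samples. Of 27 compared cytochromes P450 and regulators of drug metabolism 1 was higher (*Nr1i3*) and 1 lower (*Cyp2c12*), with a median of 0.01. Over all genes 0.646% were higher and 0.488% lower. *Cyp2b15* is not a member of that list and was named for the size of its difference. LOC368066, similar to indolethylamine N-methyltransferase, was 2.51-fold higher, at 585 ± 18.9 and 1468 ± 33.4, with 520.2 and 477 on standard diet.

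Retinoid metabolism gave 3 of 17 compared genes higher and 0 lower, against 0.646% and 0.488% of all genes, with a median of 0.2. Besides *Aldh1a7* these were *Rdh16* (*Rdh2* in the file), a retinol dehydrogenase, and *Bco2*, which cleaves carotenoids. *Rdh16* read 501 ± 31.033 in control and 1054 ± 25.2 in FR30 liver (2.10-fold), but 1588 and 719 in control and FR30 liver on standard diet, in the reverse order. *Bco2* read 386 ± 14.3 and 591 ± 35.3 (1.53-fold), with 555 and 397. *Adh6*, an alcohol dehydrogenase, was 1.504-fold higher.

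The largest difference below 0 was that of *Hmox1*, heme oxygenase, which breaks down heme and is a classic marker of oxidative stress. Its signal was 5520.3 ± 74.1 in control and 761 ± 18.6 in FR30 liver on high-fat diet, 7.26-fold lower. On standard diet it was 588 and 685, so the control high-fat sample alone was high and FR30 liver on high-fat diet read close to the standard-diet samples. No other gene of heme breakdown passed the threshold. Heme breakdown and iron handling gave 1 of 22 lower (*Hmox1*), 0 higher and a median of -0.07. Targets of the oxidative stress factor NRF2 gave 1 of 17 higher (*Gsta3*), 0 lower and a median of 0.06. Over all genes 0.646% were higher and 0.488% lower. Heat shock proteins gave 1 of 12 higher, *Hspb1* at 1.64-fold, and endoplasmic reticulum stress 0 of 18.

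*Egr1*, an immediate early transcription factor, was likewise high in 1 sample. It read 961 ± 22.3 in control and 382 ± 19.3 in FR30 liver on high-fat diet, 2.52-fold lower, and 358 and 284 on standard diet. *Myc*, a growth-related transcription factor, read 1429 ± 23.4 and 931 ± 24.3 (1.53-fold lower), with 1006 and 695. These were the 2 lower genes of 19 immediate early and growth arrest genes, with 0 higher and a median of -0.05. The shares over all genes were 0.488% lower and 0.646% higher. *Per1*, a clock gene that also responds to glucocorticoids, was 1.61-fold lower, at 506 ± 27.7 and 314 ± 14.3, the 1 gene past the threshold of 11 compared clock genes (median 0.03). The sources used here do not give the time of day at which tissue was taken, and its part was not tested.

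*Lox*, lysyl oxidase, which cross-links collagen and elastin, read 5496 ± 59.4 in control and 1789 ± 47.3 in FR30 liver, 3.07-fold lower. On standard diet the order was reversed, at 2565 in control and 4235 in FR30 liver. Of 22 compared genes of the extracellular matrix and its proteases 2 were lower and 0 higher, against 0.488% and 0.646% of all genes. The list median was 0.05. Besides *Lox*, the other lower gene was *Mmp14*, a membrane-bound matrix protease, at 1.53-fold. *Cavin3* (*Prkcdbp* in the file), a protein of caveolae, was 1.72-fold lower, at 746 ± 25.6 and 434 ± 17.963. It read 1578 and 1768 on standard diet, so both high-fat samples were low and FR30 liver was the lowest. *Gjb2*, connexin 26, a gap junction protein of hepatocytes, read 5656 ± 95.6 and 3363 ± 127 (1.68-fold lower), with 3728 and 3933.

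**Figure D3:**
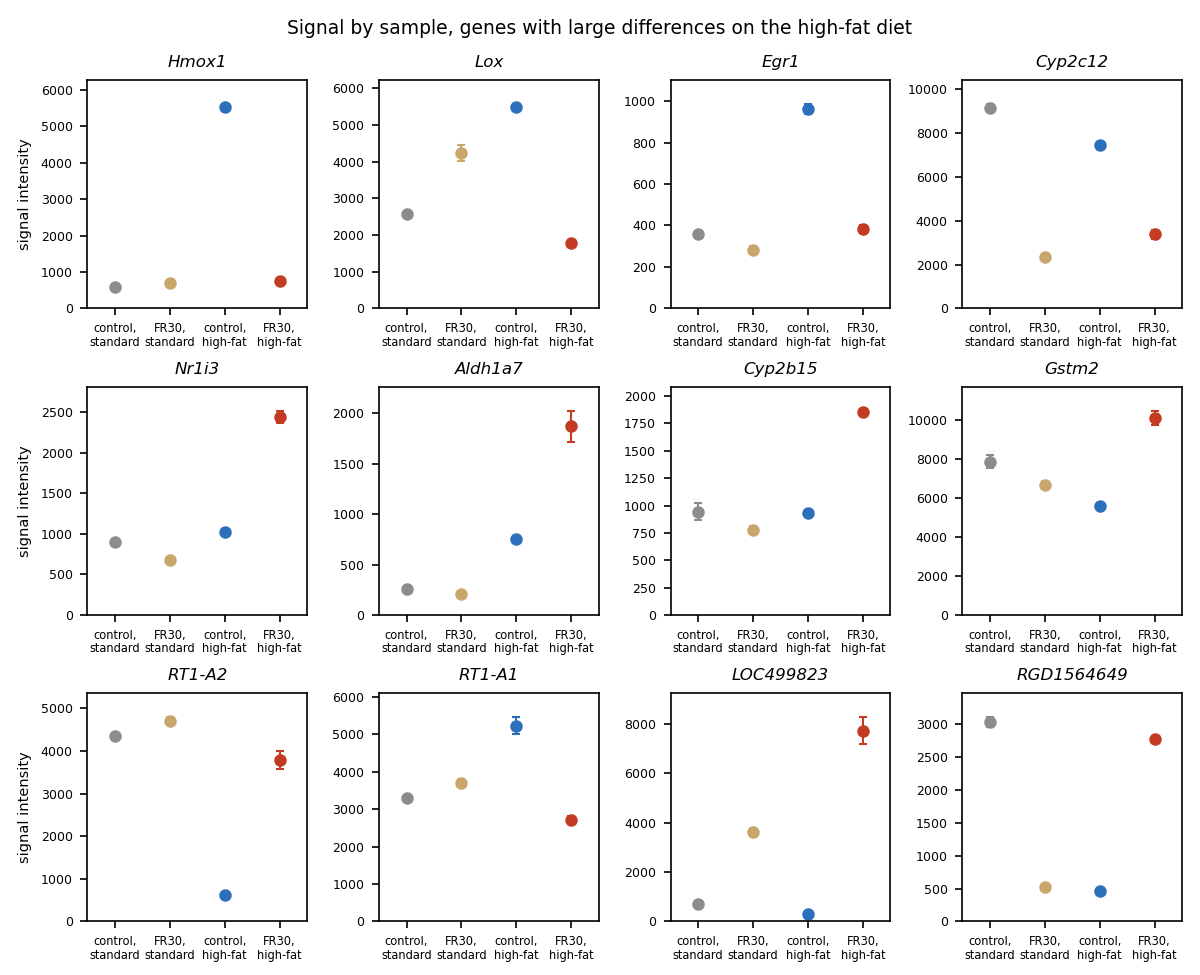
Deposited signal intensity (vertical axes from 0, arbitrary units) in each of the 4 samples for 12 genes with large differences on the high-fat diet; points are single samples and bars the deposited STDEV. Hmox1 and Egr1 were high in control liver on high-fat diet, Nr1i3, Aldh1a7 and Cyp2b15 were high in FR30 liver on that diet, and Cyp2c12 was lower in FR30 liver on both diets.

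Genes that differ between the sexes in rat liver, where the pattern of growth hormone release sets their level, were also looked at. *Cyp2c12*, a steroid hydroxylase typical of female rats, read 7481 ± 47.6 in control and 3388 ± 205 in FR30 liver, 2.21-fold lower. On standard diet it read 9141 and 2347, so both FR30 samples were below both control samples. All animals were male, and whether the *Cyp2c12* probe tells this gene from related cytochromes P450 was not tested. *Cyp2c12* was the 1 gene past the threshold of 6 compared female-biased genes (median -0.18), and male-biased genes gave 0 of 8 (median 0.04). *Akr1c2* (*Akr1c21* in the file), an aldo-keto reductase of steroids, was 1.75-fold lower, at 15965 ± 759.6 and 9151 ± 57.5, with 10974 and 3502 on standard diet. LOC366380, an alpha 2U globulin, the family of urinary proteins made by male rat liver, was 2.29-fold higher, at 953 ± 53.023 and 2186 ± 136, with 1412 and 775 on standard diet. Insulin and growth hormone signalling gave 0 of 12 past 1.5-fold and a median of 0.07.

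Of 2 enzymes of glucose output, neither passed the threshold. *Pck1*, phosphoenolpyruvate carboxykinase, read 38033 ± 889 and 29947 ± 1078 (1.27-fold lower as deposited, 1.20-fold after background correction). *G6pc1*, glucose-6-phosphatase, read 9680.4 ± 133 and 6857 ± 169 (1.41-fold lower). Of 14 compared genes of gluconeogenesis and FoxO targets 1 was higher and 0 lower, 11 had a difference below 0 (51.6% of all genes did) and the median was -0.08. The higher gene was *Gpt*, alanine aminotransferase, at 4156 ± 95.7 and 7013 ± 499 (1.69-fold), with 8693 and 4911 on standard diet. *Pfkfb1*, which sets the level of fructose 2,6-bisphosphate, was 1.66-fold higher, the 1 gene of 19 of glycolysis and glycogen (median 0.0). *Slc2a5*, the fructose transporter, was 1.64-fold lower, at 493 ± 6.35 and 299.9 ± 15.4, with 1049 and 507 on standard diet.

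*Fgf21*, a hormone that the liver releases in fasting and under dietary stress, read 529 ± 35.1 in control and 329 ± 7.62 in FR30 liver, 1.61-fold lower, and was the 1 gene past the threshold of 6 in its list with ketogenesis (median -0.11). Urea cycle and amino acid catabolism gave 2 of 33 higher, 0 lower, 26 above 0 and a median of 0.12. Over all genes 0.646% were higher, 0.488% were lower and 48.2% lay above 0. *Mat1a*, which makes the methyl donor S-adenosylmethionine, read 3284 ± 30.7 and 5704 ± 149 (1.74-fold), with 4938 and 4236 on standard diet. *Agxt2*, an aminotransferase of glyoxylate and methylated arginines, read 4204 ± 108 and 6399 ± 285 (1.52-fold), with 3635 and 3804. LOC691966, similar to sulfide:quinone oxidoreductase, was 1.71-fold lower, at 4166 ± 18.951 and 2436 ± 66.994. The respiratory chain and ATP synthase gave 0 of 33 past 1.5-fold, with 26 members above 0 and a median of 0.06. *Thrb*, the thyroid hormone receptor of the liver, was 1.56-fold lower, at 807 ± 10.8 and 517 ± 12.3. With *Nr1i3* it was 1 of the 2 nuclear receptors past the threshold among 23.

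Some of the largest differences were in genes with near-identical copies, and whether each probe tells its gene from those copies was not tested. *RT1-A2* and *RT1-A1*, class I genes of the rat major histocompatibility complex that present antigen, differed in opposite directions. *RT1-A2* read 628 ± 23.6 in control and 3787 ± 209.8 in FR30 liver (6.03-fold higher), with 4355 and 4705 on standard diet, so control high-fat liver alone was low. *RT1-A1* read 5228 ± 226 and 2716 ± 102 (1.93-fold lower), with 3313 and 3702. They were the 2 genes past the threshold of 17 in antigen presentation (median -0.08), against 1.13% of all genes. Interferon response genes gave 0 of 18. Outside the list, *RT1-M6-2* was 1.58-fold higher and *RT1-S2* and *RT1-CE16* were 1.51-fold and 1.56-fold lower. RGD1562652, similar to a class I histocompatibility antigen, was 1.67-fold lower, at 352.2 and 211.2. In FR30 high-fat liver *RT1-S2* read 182.0 and *RT1-CE16* 188.2, close to the background. These genes outside the list were named after their values were seen.

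RGD1564649, similar to the 40S ribosomal protein S9, and *Rps9* itself were both higher and shared an order of samples. RGD1564649 read 462 ± 4.44 in control and 2775 ± 21.4 in FR30 liver (6.01-fold), but 3019 in control and 526 in FR30 liver on standard diet. *Rps9* read 1679 ± 15.9 and 3619 ± 59.6 (2.16-fold), with 3609.7 and 1482 on standard diet. In both genes the control standard-diet and FR30 high-fat samples were high and the other pair low. *Rnf113a2* (*Znf183* in the file), a RING finger protein, read 347 ± 1.82 and 886 ± 38.9 (2.55-fold), with 564 and 242 on standard diet.

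The highest fold of the comparison belonged to LOC499823, a predicted transcript that the file calls similar to LRRGT00001. It read 319 ± 25.8 in control and 7726 ± 535 in FR30 liver, 24.2-fold higher, and 694 and 3625 on standard diet, so both FR30 samples were above both control samples. *Zcchc9*, a zinc finger protein, had the same order, at 384 ± 6.07 and 1188 ± 36.4 (3.10-fold) on high-fat diet and 554 and 871 on standard diet. LOC287167, named globin alpha in the file, read 305 ± 16.2 and 881 ± 53.2 (2.89-fold), with 241 and 184. The abundant globins did not follow it: *Hbb* read 17565 in control and 18345 in FR30 liver and *Hba-a2* read 48663 and 44370. Another erythroid marker, *Ahsp*, read 340.3 ± 9.13 and 483.2 ± 22.7, 1.42-fold higher as deposited and 1.71-fold after background correction. *Alas2* read 229.2 and 242.4.

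The remaining genes among the 15 largest differences below 0 were mostly high in control liver on high-fat diet. LOC500300, similar to the hypothetical protein MGC6835, was 2.03-fold lower, at 7451 ± 333 and 3669 ± 57.2, with 2817 and 3900.2 on standard diet. *Slc4a4*, a bicarbonate cotransporter, read 1128 ± 31.8 and 672 ± 13.5 (1.68-fold lower), with 692 and 601. *Abcb9*, a lysosomal peptide transporter, and *Tob2*, an antiproliferative protein, were 1.68-fold and 1.70-fold lower. *Pxmp4*, a peroxisomal membrane protein, and *Mybl1*, a transcription factor of the Myb family, were 1.81-fold and 1.93-fold lower.

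Genes detected in 1 high-fat sample only were given a bound, the brighter signal over the higher of the dim sample's own signal and its lowest detected signal, about 168. FR30 liver alone had 449 such genes and control liver alone 245, and the bound reached 1.5-fold for 2 each way. *Fn3krp*, a kinase that removes sugar adducts from proteins, was at least 1.71-fold higher, at 177.7 in control and 303.7 in FR30 liver, and *Pbsn*, probasin, a lipocalin, at least 1.55-fold higher, at 167.9 and 260.1. LOC310926 was at least 1.94-fold lower, at 349.1 and 180.1, and LOC497812 at least 1.68-fold lower, at 281.7 and 147.3. The next bounds upward were 1.46-fold for *Cib2*, 1.35-fold for *Rgsl2h* and 1.32-fold for LOC363865, and those downward 1.27-fold for *Tacr1*, 1.25-fold for *Gnpda2* and 1.24-fold for *Ky*. All these signals lie close to the background.

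The other lists held few or no genes past the threshold. Over all genes 0.646% were higher and 0.488% lower. Acute phase proteins gave 1 of 18 higher, *Orm1*, a carrier protein of plasma, at 7917 ± 326 in control and 12638 ± 269.6 in FR30 liver (1.596-fold). Control high-fat liver was the low sample for *Orm1*, since the standard-diet signals were 16382 and 14275. Coagulation, complement and serpins gave 1 of 31 lower, the complement component *C6* at 1.58-fold. Genes of the pericentral liver zone gave 2 of 16 higher, *Nr1i3* and the ammonium transporter *Rhbg* (1.51-fold), with a median of -0.11, and periportal genes 0 of 15 with a median of 0.08. Chemokines and cytokines, metallothioneins, cell cycle genes, and DNA methylation and chromatin modifiers gave 0 past the threshold of 19, 5, 16 and 22 compared.

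**Figure D4:**
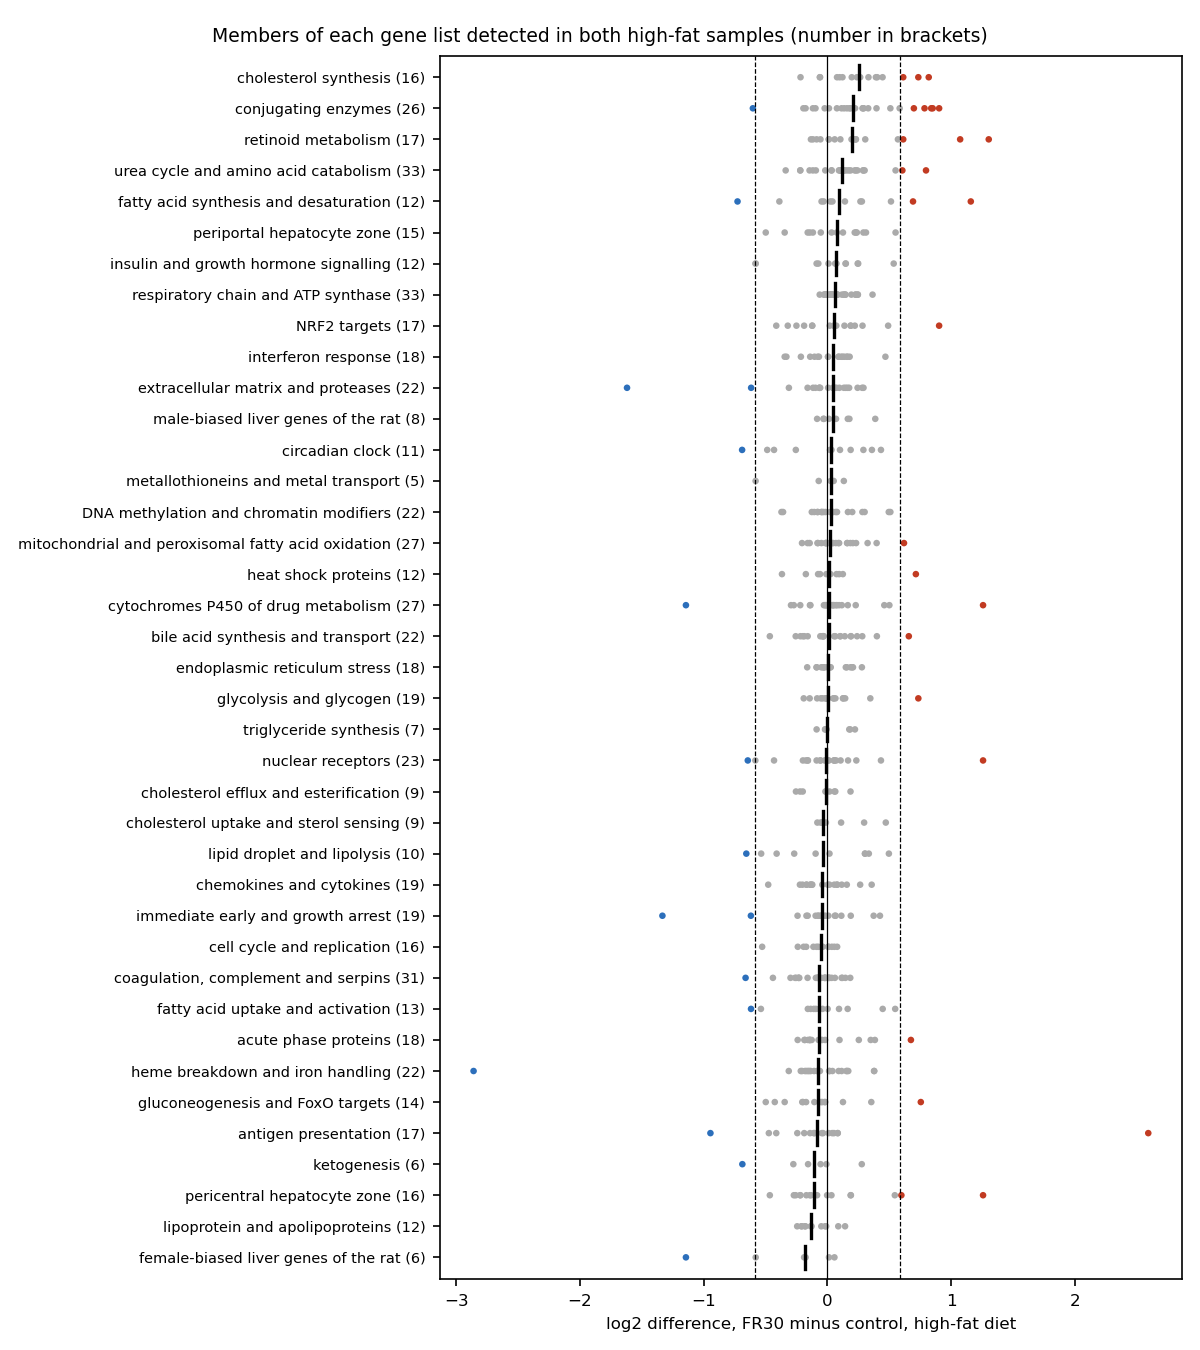
Log2 difference between FR30 and control liver on the high-fat diet (horizontal axis) for each member of 39 gene lists detected in both samples, with the number of such members in brackets. Black bars are list medians and dashed lines mark 1.5-fold; cholesterol synthesis has the highest median, 0.25, and female-biased liver genes the lowest, -0.18.

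Markers of hepatocytes and of other cells a piece of liver can hold were read in the same samples. In bulk RNA, fewer cells of a type and less RNA per cell cannot be told apart. All 7 hepatocyte markers on the array were detected in both high-fat samples, with a summed signal of 237369 in control and 218250 in FR30 liver. Their median log2 difference was -0.13 as deposited and 0.02 after background correction. None of 11 marker lists had a member past 1.5-fold on deposited signals. After background correction *Lum*, *Spp1* and *Pparg* were 1.79-fold, 1.525-fold and 1.89-fold lower, and *Ahsp* and *Cidea* 1.71-fold and 1.58-fold higher. The lists of *Lum*, *Spp1* and *Ahsp* had 5, 4 and 4 compared members, and that of *Pparg* and *Cidea* had 6. Over all genes 1.74% were higher and 1.58% lower after that correction. Sums take all markers of a list on the array, detected or not. The 7 macrophage markers summed to 5467 and 5075. The 7 markers of stellate cells and fibroblasts, 5 of them detected in both, summed to 3912 and 4742. Of these 5, 3 had a log2 difference above 0 and 2 below, with *Reln* at 1787 and 2402 and *Lum* at 245 and 198. Erythroid markers, 4 of 8 detected, summed to 67467 in control and 64085 in FR30 liver, above the 47448 and 46148 of the standard-diet samples. Adipocyte markers summed to 3839 and 3599, against 10290 in FR30 liver on standard diet. Of 8 neutrophil and mast cell markers 0 were detected in either high-fat sample. Lymphocyte markers were detected in both for 3 of 12, endothelial markers for 4 of 6, bile duct markers for 4 of 8, skeletal muscle markers for 2 of 8 and exocrine pancreas markers for 2 of 7. The part of other cells in the differences above was not tested.

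The same prenatal comparison on standard diet uses the other samples and shares none with the comparison above. There 74 of 8847 genes (0.836%) lay at least 1.5-fold above control and 68 (0.769%) below it. Signals plus and minus 2 STDEV did not overlap for 51 of the 74 and for all 68. Adipocyte markers were among those higher in FR30 liver there, 6 of 7 compared, with *Fabp4*, a fatty acid carrier of fat cells, at 246.5 in control and 3020.1 with an STDEV of 4928 in FR30 liver, and 7 of 8 skeletal muscle markers were detected in that sample against 2 in each of the others. Their part in the standard-diet differences was not tested. Without genes whose STDEV was over 20%, left out as a choice made after the data were seen, 53 of 8767 genes were higher and 68 lower. Over the 8533 genes detected in all 4 samples the log2 differences on the 2 diets had Pearson r = -0.042 and Spearman rho = -0.056, a description across genes, which are not independent replicates. They had the same sign for 48.1% of genes. Of the 57 genes higher on high-fat diet 18 had a standard-diet difference above 0, and of the 42 lower genes 22 had one below 0. Most genes past 1.5-fold on one diet were under it on the other.

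Of these 8533 genes 57 (0.668%) were higher and 42 (0.492%) lower on high-fat diet, and 72 (0.844%) and 68 (0.797%) on standard diet. Past 1.5-fold the same way on both diets were 9 genes. The 4 higher ones, LOC499823, *Zcchc9*, *AKR1C3l1* and *Adh6*, are 7.02% of those higher on high-fat diet and 5.56% of those higher on standard diet. The 5 lower ones, *Cyp2c12*, *Akr1c2*, *Slc2a5*, *Epha4* and *Pxmp4*, are 11.9% and 7.35%. *AKR1C3l1* (RGD1564865 in the file, similar to a 20-alpha-hydroxysteroid dehydrogenase) read 3339 ± 119.6 in control and 5242 ± 219 in FR30 liver on high-fat diet, and 2946 and 5871 on standard diet. *Epha4*, an ephrin receptor, read 366 ± 21.2 and 228 ± 15.5, and 329 and 202. For these receptor and reductase genes both FR30 samples lay on the same side of their controls. In 13 genes the difference passed 1.5-fold on both diets in opposite directions.

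The list medians on standard diet are given beside those on high-fat diet. Cholesterol synthesis had 0 of 16 members past 1.5-fold on standard diet and a median of 0.11, against 3 and 0.25 on high-fat diet. Conjugating enzymes had 0 higher and 4 lower of 26 on standard diet and a median of -0.08, against 5 higher, 1 lower and 0.21. Retinoid metabolism had 0 higher and 1 lower of 17 with a median of -0.1, and urea cycle and amino acid catabolism 0 higher and 1 lower of 33 with -0.17. These differences between diets were not tested.

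**Figure D5:**
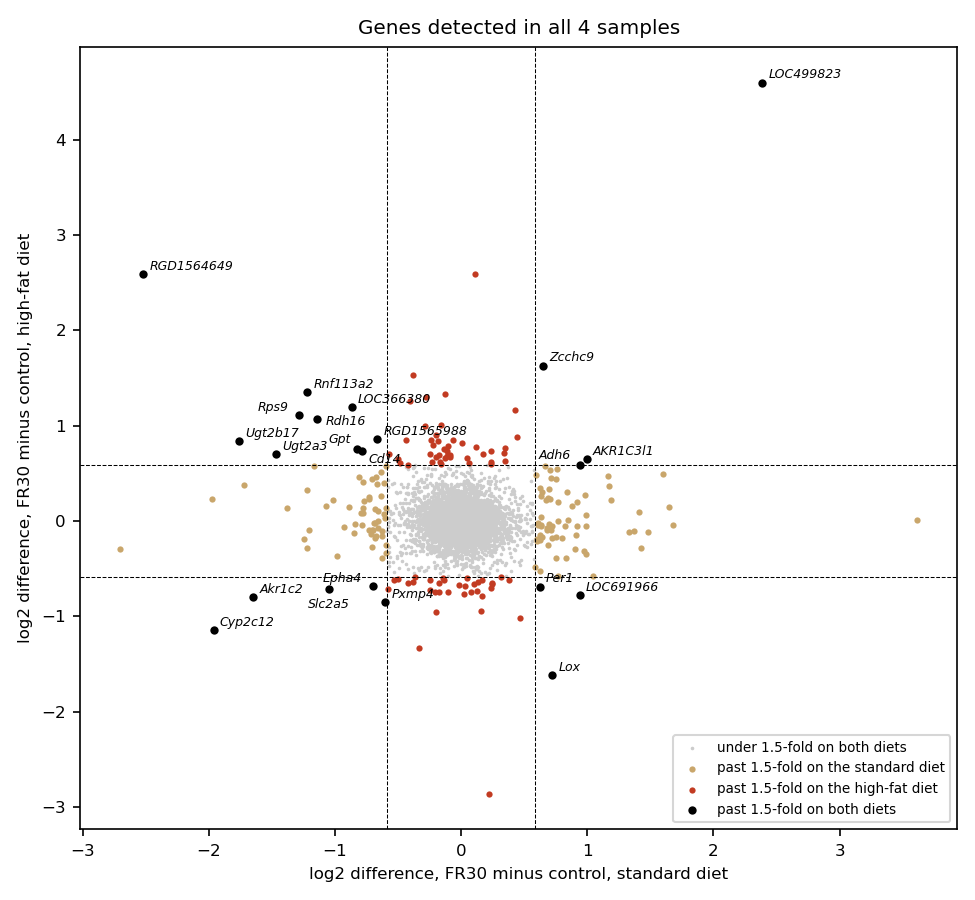
Log2 difference between FR30 and control liver on the high-fat diet (vertical axis) against that on the standard diet (horizontal axis) for the 8533 genes detected in all 4 samples. Dashed lines mark 1.5-fold; black named points are past it on both diets, 9 in the same direction and 13 in opposite directions, and the cloud has no slope (Pearson r = -0.042).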

How the data were processed

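Liver RNA of 4 samples, 1 per group, was measured on Illumina BeadArrays. The authors deposited normalized signal intensity per gene with an STDEV and a detection p-value, per the file headers. The submitters' processing notes name GenomeStudio, with no version, and the sources used here do not give the normalization method. Their non-normalized table was not used, because by row identifier its values correlated with the normalized ones at Pearson r of only 0.0587 to 0.0658, and the series matrix was not used either.

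Differences are log2 FR30 minus control of the deposited intensity, at a 1.5-fold threshold, with no test because each group has 1 sample. Background correction, an alternative, used limma 3.58.1 in R 4.3.3 with an offset of 16, then quantile normalization. Other steps ran in Python 3.11.15, numpy 2.4.6, pandas 2.3.3 and matplotlib 3.10.9. Only the calling of differences was tried on simulated data, with folds set well past the threshold. Symbols were updated through RefSeq (GRCr8), which held 9918 of the 21791 row symbols as current and 4820 as synonyms; 6936 stayed as in the file and 117 rows were unnamed. The brightest row of a gene was kept.

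The text names the 15 genes with the largest difference in each direction whose signals lay apart by 2 STDEV, the 5 largest bounds each way, list members past 1.5-fold, cholesterol genes, a few fixed genes, and genes past 1.5-fold on both diets, with the exceptions stated. A few genes, members of the cholesterol lists among them, are neither counted nor reported here. The comparison, lists and rules were chosen with earlier results of these data known.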

Additional observations from a re-analysis of the deposited data

Results flagged for a closer look

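In 13 genes FR30 and control liver differed by at least 1.5-fold on both diets but in opposite directions. The value given for each is the log2 difference on high-fat diet minus that on standard diet. With 1 sample per group the difference between the diets was not tested.

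Higher in FR30 liver on high-fat diet and lower on standard diet were 10 genes. The value was 5.11 for RGD1564649, similar to the 40S ribosomal protein S9, and 2.39 for *Rps9*. It was 2.6 for *Ugt2b17* and 2.17 for *Ugt2a3*, both glucuronosyltransferases. It was 2.57 for *Rnf113a2*, 2.22 for *Rdh16* and 2.06 for LOC366380, an alpha 2U globulin. It was 1.58 for *Gpt*, 1.53 for RGD1565988 and 1.52 for *Cd14*, a receptor for bacterial lipopolysaccharide. *Cd14* read 2461 in control and 4096 in FR30 liver on high-fat diet and 3003 and 1743 on standard diet.

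Lower on high-fat diet and higher on standard diet were 3 genes. The value was -2.34 for *Lox*, -1.71 for LOC691966, similar to sulfide:quinone oxidoreductase, and -1.31 for the clock gene *Per1*.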

How the results depend on the processing

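The counts on deposited signals were 57 genes higher, 43 lower, 3 higher cholesterol synthesis genes and 9 genes past 1.5-fold the same way on both diets. With normal-exponential background correction and quantile normalization they were 153, 139, 5 and 34. With 100 units subtracted and a floor of 16 the genes higher, lower and shared by both diets numbered 106, 87 and 20. At 2-fold they were 14 higher, 5 lower, 0 cholesterol synthesis genes and 2 shared. The other settings, namely quantile normalization alone, centring on the median, other detection and STDEV rules and the mean of a gene's rows, kept each of these counts within 1.5 times. Of 64 named genes past 1.5-fold 0 changed direction and, with that threshold kept, 0 fell under it by more than an allowance for rounding. Under the stricter detection rules and with the mean of a gene's rows only 63 of them could be compared. The gene lost with the mean of rows was *Gsta3*. At most 3 of 39 list medians changed sign under a setting. Opposite differences on both diets numbered 13 on deposited signals and 31 after background correction. Folds of dim genes depend most on the background. No paired analysis was possible because each group has 1 sample, and for the same reason no sample could be left out.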
